A study of Macaca mulatta with 5 samples.

Results

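The comparison is that of matured cells with FGF4-expanded cells, the last step of a staged culture that took rhesus macaque embryonic stem cells towards serotonin neurons. Its members are 2 of the 5 arrays of the series, chosen by their stage label: the N3 array, titled as differentiating serotonin neurons, and the N2 array, titled as proliferating serotonin neurons. All stages came from line 366.4, an embryonic stem cell line derived from flushed preimplantation embryos, and each stage was hybridised once, so every value is a single measurement and no difference here has a replicate check. Stem cells were collected at passage 13 from a layer of mouse embryonic fibroblasts (ESC), embryoid bodies after 6 to 8 days (EB) and neurospheres after a further 7 to 9 days in DMEM/F12 with N2 supplement (N1). N2 cells had spent another 7 to 9 days in that medium with FGF4 added to expand nestin-positive cells, and N3 cells had been moved on without FGF4 in DMEM/F12, in wells that the labels call GFR reduced, for a time the labels do not give. The withdrawal of FGF4, the change of wells and the added time in culture cannot be told apart.

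Fibroblast growth factors keep neural progenitors dividing, and many progenitors leave the cell cycle and become neurons when that signal ends. Serotonin neurons arise in the ventral hindbrain under a set of transcription factors that includes GATA2, GATA3, LMX1B and FEV, which turn on the synthesis enzyme TPH2, the vesicle transporter SLC18A2 and the uptake transporter SLC6A4. Embryoid bodies make all germ layers, so a culture derived from them can also hold muscle, liver-like, vascular and epithelial cells.

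Signals are scaled array intensities on a linear scale, with each array set to a common trimmed mean of 500. A floor of 100 stands for the level below which a signal is not ordered, and a gene is called measured when at least 1 of its N2 and N3 signals lies above it. Where 1 of the 2 signals lay below the floor, the ratio taken against the floor is a lower bound, given as "at least". Of 14132 named genes 10401 were measured, 497 of them at least 2-fold higher in N3 (4.78%) and 228 at least 2-fold lower (2.19%), or 6.97% either way in all, and the median log2 ratio over these measured genes was -0.02. Higher genes made up 68.6% of those past 2-fold, 54.4% when arrays were scaled to equal medians and 86.3% when they were scaled to the hybridisation controls. At 4-fold the counts were 36 and 22. Of the higher genes 82, and of the lower genes 43, lay below the floor on the other array, so that their direction followed from the filter. With log2 ratios between 1.0 and 1.1, 115 genes lay just inside the 2-fold limit on the higher side, and 162 lay just outside it between 0.9 and 1.0. In a bulk culture, fewer cells of a type and less RNA per cell cannot be told apart.

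The 2 arrays differed in a measure of RNA integrity, whose part in the differences between them was not tested. Labelling from the 3' end of messenger RNA gives 5' probe sets little signal where the RNA is broken. The ratio of the 3' to the 5' actin control was 25.2 in N2 and 8.63 in N3, against 1.73 in ESC, 15.2 in EB and 5.43 in N1. For the GAPDH control it was 7.10 in N2 and 2.10 in N3, and for the EF1a control 1.88 and 1.06. N2 thus had the highest ratio of the 5 arrays for all 3 controls. Between N2 and N3 the 3' GAPDH control had a log2 ratio of -0.21 whereas the 5' one had 1.55, and for actin these were -0.18 and 1.37. A second probe set was measured for 134 of the higher genes, of which 113 had the same direction on it and 45 passed 2-fold on it. For the lower genes these numbers were 95, 68 and 18. On the ESC, EB and N1 arrays, an order of ESC above N1 above EB runs opposite to the actin control ratio. It does not do so for the other controls, whose ratio was lower in N1 than in ESC (GAPDH 1.69 and 1.94, EF1a 0.829 and 0.863). This order, examined after values had been seen, was found in 1772 of all 10401 measured genes (17.0%), in 165 of the 497 higher genes (33.2%) and in 17 of the 228 lower genes (7.46%). It was taken after the floor, so genes below the floor in ESC or N1 cannot show it, and no conclusion is drawn from these shares. For 4131 genes the log2 ratios of N3 over N2 on 2 probe sets of the same gene were compared. The SD of their difference, divided by the square root of 2, was 0.434. This spread per probe set is a technical one and not one between cultures. Where further probe sets of a gene are given in brackets, the values are their log2 ratios of N3 over N2.

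**Figure D1:**
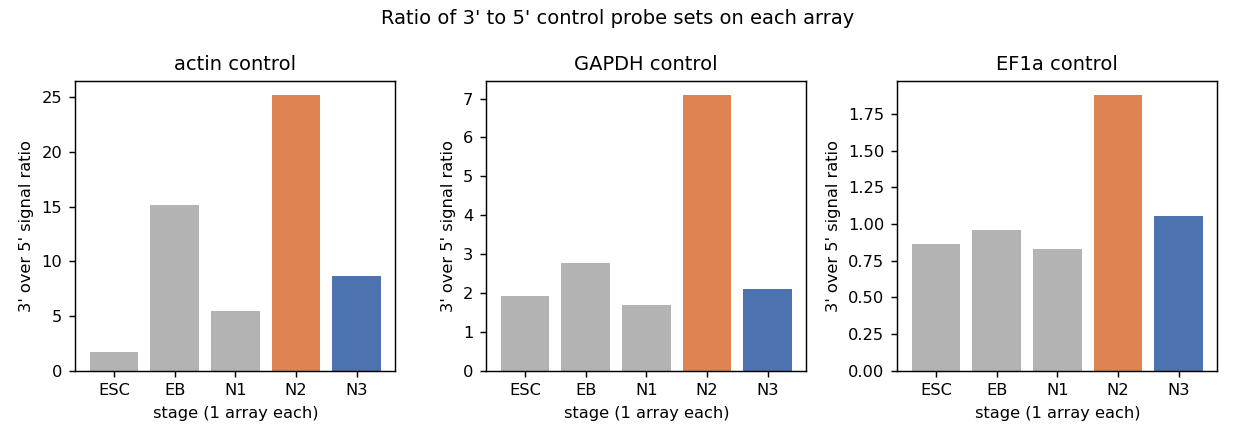
Ratio of the 3' to the 5' signal (no unit, each vertical axis from 0) of the actin, GAPDH and EF1a control probe sets on the single array of each stage, with N2 in orange, N3 in blue and the other stages in grey. The N2 bar is the tallest in each panel, at 25.2, 7.10 and 1.88, and the N3 bars stand at 8.63, 2.10 and 1.06.

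Removal of FGF4 was the stated change of medium, so genes that FGF signalling is known to induce are given first. Of 12 measured members of the FGF feedback and response list 0 were at least 2-fold higher and 0 lower, with a median log2 ratio of 0.31, and with a floor of 50, no floor or scaling to the hybridisation controls 1 was higher. These counts are near the 6.97% of all measured genes past 2-fold and say nothing particular about the list. SPRY2, an inhibitor of receptor tyrosine kinase signalling induced by FGF, had signals of 3469.6 in ESC, 1959.8 in EB and 1791 in N1, then 5350.2 in N2 and 8842 in N3. Its log2 ratio was 0.72, and that of its second probe set 0.07. FGFBP3, which releases FGFs from the matrix, gave 2155 in N2 and 2218 in N3 (log2 ratio 0.04), and the transcription factor ETV1 2000.5 in N2 and 1303 in N3 (log2 ratio -0.62). Both stayed within 2-fold, and so did SPRY4 and SPRY1, named after their values were seen, with log2 ratios of -0.15 and 0.31. In the list 8 genes had a positive log2 ratio and 4 a negative one. The ratios ran from -0.62 for ETV1 to 0.86 for CCND1, also named after its values were seen. DUSP6, ETV5 and EGR1, further targets of the pathway, had no matched probe set. Among 12 measured ligand and receptor genes, 2 ligand genes were higher and 0 genes lower. FGF9 gave 180.3 in ESC, 201 in EB and 325 in N1, then 478 in N2 and 1065 in N3, a 2.23-fold higher signal in N3 than in N2. FGF11, an intracellular member of the family, gave 641 in N2 and 1285 in N3 (2.0-fold higher), with a log2 ratio of 1.00 on its second probe set. FGFR2 and FGFR3, receptors of progenitor cells, had log2 ratios of -0.66 and 0.07.

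Genes of serotonin neuron identity and synthesis were near or below the floor in several cases. Of 19 listed genes 15 had a probe set and 9 were measured, 0 of them past 2-fold in either direction, with a median log2 ratio of -0.22. With 6.97% of all measured genes past 2-fold, a count of 0 among so few genes sets the list apart in no way. TPH2, the brain enzyme that starts serotonin synthesis, had signals of 7.28 in ESC, 16.2 in EB and 8.28 in N1, then 5.03 in N2 and 5.36 in N3. FEV had 66 in N2 and 85.3 in N3, and LMX1B 37.3 in N2 and 24.7 in N3. These 3 defining genes were below the floor on both arrays, so no ratio is given, and SLC6A4 had no matched probe set. SLC18A2, which loads monoamines into vesicles in several types of neuron, gave 86.9 in ESC, 189 in EB and 178 in N1, then 141 in N2 and 150.3 in N3, and stayed at 189 or below throughout. GATA2 and GATA3, which act upstream of the identity genes and also in other tissues, had log2 ratios of -0.26 (128 in N2 and 107 in N3) and -0.68 (1436 in N2 and 895 in N3). A second GATA3 probe set stood at -0.90 on the same scale. MAOA, which degrades monoamines, gave 779.8 in N2 and 906 in N3, and PTS, an enzyme of the cofactor that TPH2 needs, 616 in N2 and 648 in N3. GCH1 and SPR, the other enzymes of that cofactor, named after their values were seen, had log2 ratios of -0.82 and -0.83. Summed over the 5 serotonin markers with a probe set, the signal was 377 in N2 and 372 in N3, with 2 of 5 at the floor or above on both arrays. The titles' name for the cells therefore has no counterpart in TPH2, FEV or LMX1B signal on either array. Of the ventral hindbrain patterning genes 8 were measured, 0 higher and 1 lower, the lower one being FOXA1, which also acts in endoderm and is described with it. Among the 4 measured monoamine receptor genes, the serotonin-gated channel gene HTR3A was at least 2.47-fold lower (247 in N2 and 77.1 in N3) and 0 were higher.

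**Figure D2:**
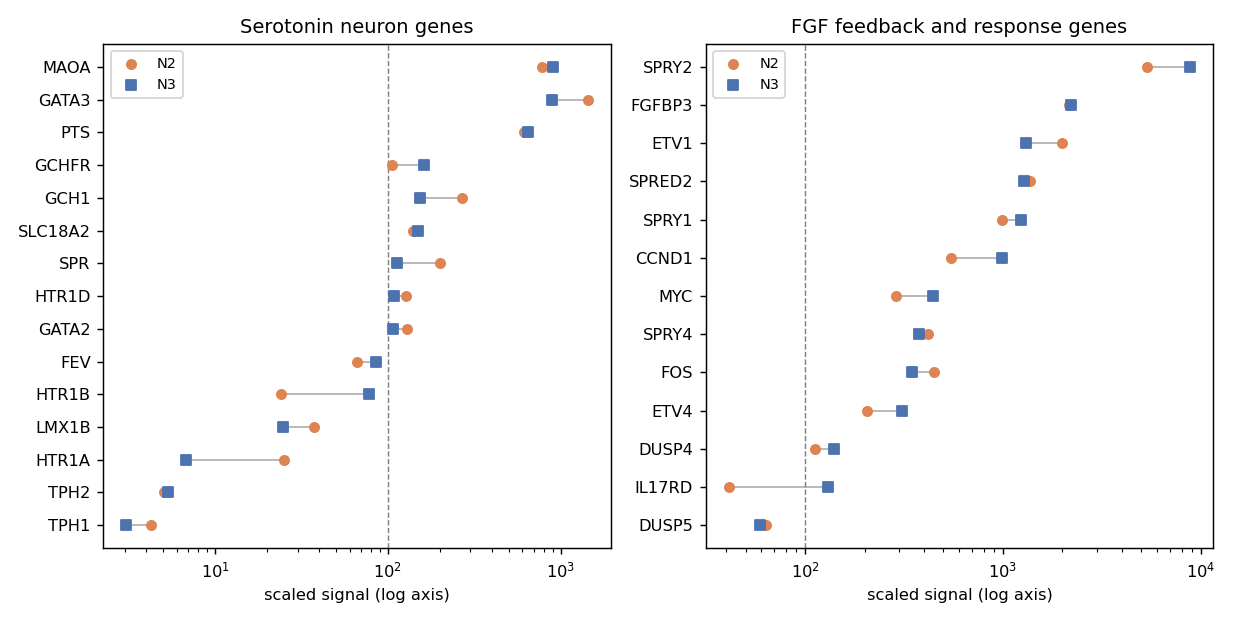
Scaled signal in N2 (orange circles) and N3 (blue squares) on a log axis, for the genes of the serotonin list and of the FGF feedback list that have a probe set; the dashed line is the floor of 100. TPH2, FEV and LMX1B lie left of the line on both arrays, and SPRY2 and FGFBP3 lie far to its right on both.

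Some structural genes of neurons were higher in N3. The counts of this list and of the lists after it stand against 4.78% higher and 2.19% lower among all measured genes. Of 22 measured genes of the neuronal cytoskeleton and of neurite growth, 4 were at least 2-fold higher and 0 lower, 21 had a positive log2 ratio, and the median was 0.65. TUBB3, the beta-tubulin of neurons, had signals of 3684 in ESC, 663 in EB and 2852 in N1, then 1819 in N2 and 7589.9 in N3 and was 4.17-fold higher in N3 than in N2. N3 stood above all 4 earlier stages, and further TUBB3 probe sets had log2 ratios of 2.30 and 1.44. CRMP1, a mediator of semaphorin signals in growth cones, had 1514 in ESC, 554 in EB and 1472 in N1, then 3282 in N2 and 10534 in N3 (3.21-fold higher). STMN4 and DPYSL5, a microtubule regulator and a growth cone protein, were 2.73-fold and 2.61-fold higher. DCX, which stabilises microtubules in migrating neurons, gave 186 in ESC, 535 in EB and 2222 in N1, then 6488 in N2 and 10607 in N3, and STMN2 935 in ESC, 1986 in EB and 12594 in N1, then 13995 in N2 and 24814 in N3. Their log2 ratios from N2 to N3, 0.71 and 0.83, did not reach 2-fold, although both stood highest in N3 of the 5 stages. GAP43 and ELAVL4, of growth cones and of neuronal RNA binding, had log2 ratios of 0.60 and 0.25. Against N1, a comparison that shares the N3 array, 14 of 22 measured members of this list were higher and 0 lower, with a median log2 ratio of 1.42, where 8.42% of all measured genes were higher. Summed over the 6 neuron markers with a probe set, the signal was 31770 in N2 and 56207 in N3. Of the 4 higher genes 3 had the order of ESC above N1 above EB. With the median over probe sets or with scaling to the hybridisation controls 7 genes of the list were higher.

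Some genes of neuronal identity and of inhibitory transmission were also higher. Of 20 measured neurogenic transcription factor genes 5 were higher and 0 lower (median 0.25), against 4.78% higher among all measured genes. With a floor of 200, 3 were higher. POU4F2, a factor best known in retinal ganglion cells, had 124 in ESC, 29.8 in EB and 129.6 in N1, then 729 in N2 and 2687 in N3 and was 3.69-fold higher. MYT1L, which represses non-neuronal genes in neurons, gave 43.1 in ESC, 12.5 in EB and 53.1 in N1, then 542 in N2 and 1800.5 in N3 (3.32-fold higher), with a log2 ratio of 0.86 on its second measured probe set. Both were highest in N3 of the 5 stages. ONECUT2 and NEUROD6, factors of postmitotic neurons, were higher by at least 3.14-fold and at least 2.65-fold, and BHLHE22 by 2.21-fold. SOX11, a factor of newborn neurons, gave 15168 in N2 and 20267 in N3 (log2 ratio 0.42). The other brightest genes of the list, SOX4 and TBR1, had log2 ratios of 0.23 and -0.43. In this list 14 genes had a positive log2 ratio and 6 a negative one. Of 10 measured genes of GABA and glycine neurons 4 were higher and 0 lower (median 0.43), with 7 positive and 3 negative log2 ratios. DLX1, among the brightest of them, stood at -0.21. GAD1, which makes GABA from glutamate, had 7.17 in ESC, 526 in EB and 162 in N1, then 484 in N2 and 2342 in N3, a 4.84-fold difference, and 1.34 and 1.14 on the log2 scale for its other probe sets. GAD2, the other enzyme for the same step, gave 118 in ESC, 662 in EB and 560.1 in N1, then 1737 in N2 and 1230.2 in N3 and did not share that difference, at -0.50 on the log2 scale and 0.56 on a second probe set. The receptor subunit genes GABRA2 and GABRA3 were higher by at least 4.3-fold and by at least 2.42-fold, and GABRB1 by 2.07-fold. None of the 4 measured glutamate neuron genes passed 2-fold in either direction (0 higher and 0 lower, median 0.32), and the same held for 15 genes of catecholamine and acetylcholine neurons (0 and 0, median 0.05).

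NPY, a neuropeptide of many forebrain and peripheral neurons, was the only one of 14 measured neuropeptide genes past 2-fold. It had signals of 99 in ESC, 90.0 in EB and 67.7 in N1, then 330.4 in N2 and 2860.5 in N3. It lay below the floor in the first 3 stages and was 8.66-fold higher in N3 than in N2 on its single probe set. The 7 measured genes of secretory granules, in which peptides are processed, had a median of 0.61 with 0 higher and 1 lower, CADPS2, a factor of granule release (2.26-fold lower). That median was 0.10 with a floor of 50 or no floor and 0.22 with the median over probe sets. With scaling to the hybridisation controls it was 0.81.

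Ion channel, vesicle and guidance genes made up the rest of the neuronal group. Of 18 measured voltage-gated channel genes 7 were higher and 0 lower (median 0.52), against 4.78% higher among all measured genes. CACNG4, an auxiliary subunit of calcium channels and AMPA receptors, had 60.4 in ESC, 57.8 in EB and 113 in N1, then 150.3 in N2 and 578 in N3 (3.85-fold higher), with a log2 ratio of 1.97 on a second probe set. The sodium channel gene SCN2A gave 76.7 in ESC, 24.1 in EB and 63.5 in N1, then 283 in N2 and 909 in N3 (3.21-fold higher), where the second probe set had 0.38, and SCN3B, a sodium channel beta subunit, gave 338 in N2 and 897 in N3 (2.66-fold higher; other probe sets 1.13 and 0.95). KCNJ6, CACNG2 and SCN1A were 2.55-fold, 2.24-fold and 2.17-fold higher. All 6 genes stood highest in N3 of the 5 stages. With a floor of 200 or quantile normalisation 4 channel genes were higher. Of 17 measured synaptic vesicle and release genes 2 were higher and 1 lower (median 0.49). Beside 4.78% higher and 2.19% lower among all measured genes, counts this small do not set the list apart. CPLX2, a clamp of vesicle fusion, gave 316 in N2 and 726 in N3 (2.29-fold higher), and the synaptic adhesion gene NRXN3 1125 in N2 and 2559 in N3 (2.27-fold higher), while VAMP1 was at least 2.0-fold lower at 200.2 in N2 and 96.4 in N3. SYT1, the calcium sensor of release, gave 1768 in N2 and 2985 in N3 (log2 ratio 0.76). Of 34 measured genes of axon guidance and adhesion 8 were higher and 0 lower (median 0.30). The higher ones included the receptor genes PLXNB1 (131 and 451, 3.46-fold higher), ROBO3 (386 and 1097, 2.84-fold higher) and ROBO2 (282 and 781, 2.77-fold higher). SLIT1, a ligand of the ROBO receptors, was at least 3.04-fold higher and the semaphorin gene SEMA5B 2.55-fold higher. EFNA1, an ephrin, was 2.36-fold higher, but its other probe set stood at -0.53 on the log2 scale. With N1 as the reference, which shares the N3 array, 11 of 20 channel genes, 9 of 16 vesicle genes and 13 of 35 guidance genes were higher and 0 lower in each list, where 8.42% of all measured genes were higher.

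Progenitor and glial genes were split. Of 15 measured neural progenitor genes 2 were higher and 3 lower (median 0.13). With scaling to the hybridisation controls 2 of 14 were lower. Without probe sets whose names mark them as able to bind related transcripts 1 of 14 was lower. HES1, a Notch-induced repressor that keeps progenitors undifferentiated, had 485 in ESC, 326 in EB and 479.9 in N1, then 672 in N2 and 115 in N3 and was 5.84-fold lower in N3, its lowest level of the 5 stages. HES5, a related repressor induced by the same pathway, had 5.26 in ESC, 95 in EB and 274 in N1, then 1203 in N2 and 2586 in N3 and was 2.15-fold higher, its highest level. HES4, another gene of the family, was at least 3.93-fold higher. LIN28B, an RNA-binding protein of early progenitors, gave 6987 in ESC, 9472 in EB and 5386 in N1, then 3963 in N2 and 1400.1 in N3 (2.83-fold lower), and HMGA2, a chromatin protein of young neural stem cells, 474 in N2 and 207 in N3 (2.29-fold lower; second probe set -0.29). SOX2 and PAX6, factors of neural stem cells, stayed close, with 13336 in N2 and 14978 in N3 for SOX2 and 3301 in N2 and 3322 in N3 for PAX6, although another PAX6 probe set stood at 1.18 on the log2 scale. Of 23 measured Notch pathway genes 2 were higher, HES5 and HES4, and 1 lower, HES1 (median 0.09). Of 18 measured genes of astrocytes and radial glia 3 were higher and 1 lower (median 0.19). SLC1A2, the main glutamate transporter of astrocytes, had 12 in ESC, 99.4 in EB and 149 in N1, then 653 in N2 and 2340.0 in N3 (3.58-fold higher). The other astrocyte markers did not pass 2-fold. SLC1A3 had a log2 ratio of 0.84, GFAP -0.003 and S100B -0.53, ALDH1L1 lay below the floor on both arrays and AQP4 had no matched probe set. Of the brightest genes of the list, GLUL stood at -0.59, NFIB at 0.36 and ID4 at 0.30. PTPRZ1, a phosphatase of radial glia, gave 403 in N2 and 1101 in N3 (2.73-fold higher; second probe set 0.42), SOX9 107 in N2 and 244 in N3 (2.27-fold higher), and PLA2G7 was 2.04-fold lower. Of 37 measured cell cycle and replication genes 29 had negative log2 ratios on their brightest probe set, with a median of -0.37, but the second probe sets of 17 of them had a median of 0.08. The list median was -0.17 with scaling to the hybridisation controls. The 1 gene past 2-fold was the mitotic kinesin gene CENPE (508 in N2 and 225 in N3, 2.26-fold lower). PCNA, the replication clamp, had a log2 ratio of -0.46. Against N1, with the N3 array shared, the same list had 9 of 37 lower and 1 higher, where 6.67% and 8.42% of all measured genes were lower and higher. Of 21 measured cell cycle inhibitors and p53 targets 1 was higher and 0 lower, GADD45G (418 in N2 and 1022 in N3, 2.44-fold higher), a growth arrest gene of differentiating neural cells, while CDKN1B, which holds cells out of the cycle, had a log2 ratio of 0.54.

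**Figure D3:**
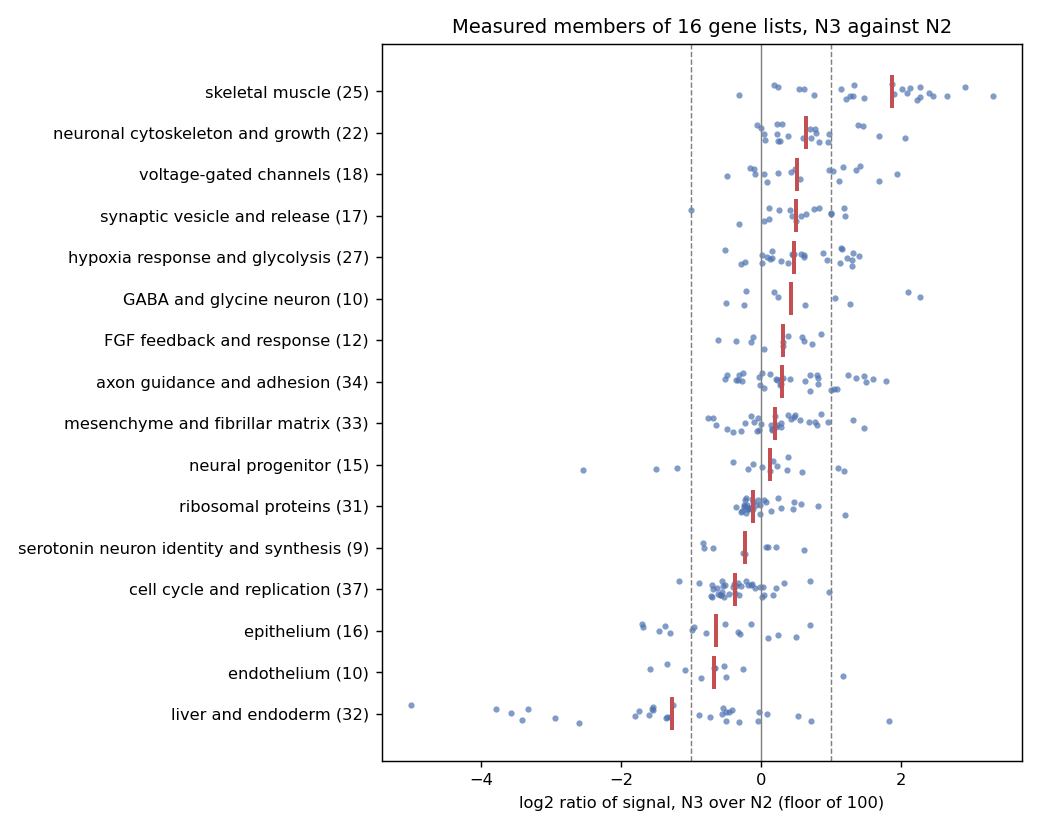
Log2 ratio of N3 over N2 after a floor of 100 for the measured members of 16 gene lists (1 dot per gene, the number of genes in brackets), with the list median in red and dashed lines at 2-fold. Medians run from 1.88 for skeletal muscle to -1.28 for liver and endoderm.

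Skeletal muscle genes had the highest median of the 16 lists plotted. Of 43 listed genes 33 had a probe set and 25 were measured, 19 of them at least 2-fold higher and 0 lower, with a median log2 ratio of 1.88, against 4.78% higher among all measured genes. A second probe set was measured for 4 of the 19, and it had the same direction for 4 and passed 2-fold for 1, while the 7 second probe sets of the whole list had a median of 0.61. Of the 19, 4 (TNNC1 and, named after their values were seen, TNNI2, TNNT3 and MYOM2) lay below the floor in N2. TNNC2, the calcium sensor of fast muscle fibres, had 486 in ESC, 53.9 in EB and 14.8 in N1, then 354 in N2 and 3537 in N3 and was 9.99-fold higher. MYH3, the embryonic myosin heavy chain, had 38.3 in ESC, 14.2 in EB and 103 in N1, then 2905 in N2 and 14054 in N3 (4.84-fold higher), and MYL1, a fast myosin light chain, 45 in ESC, 145 in EB and 188 in N1, then 2974 in N2 and 12049 in N3 (4.05-fold higher). Both were already raised in N2 over the stages before it, and N3 was the highest stage for all 3 genes. TNNI1, the troponin I of slow fibres, had 174 in ESC, 867 in EB and 1185 in N1, then 406 in N2 and 2239 in N3 (5.52-fold higher). CHRNA1, a subunit of the acetylcholine receptor of the neuromuscular junction, gave 17 in ESC, 6.87 in EB and 7.25 in N1, then 115 in N2 and 556 in N3 (4.81-fold higher). MYBPH, a myosin-binding protein, and CAV3, the caveolin of muscle membranes, were 7.53-fold and 6.29-fold higher.

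Further sarcomere genes moved in the same direction. MYH8, the perinatal myosin, MYL4, an embryonic light chain, CASQ2, a calcium store protein, and MYOT, a protein of the Z disc, all named after their values were seen, were 4.26-fold, 4.69-fold, 3.74-fold and 3.67-fold higher. MYOD1, the factor that commits cells to the muscle lineage, had 18.5 in ESC, 14.2 in EB and 13.1 in N1, then 221 in N2 and 322 in N3, and its log2 ratio from N2 to N3 was 0.54. PAX3, a factor of muscle and neural crest progenitors, had a log2 ratio of 0.19. CKM, the creatine kinase of mature muscle, gave 124 in N2 and 45.6 in N3 and so did not share the direction. With N1 as the reference, a comparison that shares the N3 array, 15 of 24 measured members were higher and 0 lower, with a median of 1.61, where 8.42% of all measured genes were higher. Of the 19 higher genes 1 had the order of ESC above N1 above EB. A gene below the floor in ESC or N1 cannot show that order, which held for TNNC2 in N1 and for MYH3 and MYL1 in ESC. No conclusion is drawn from this count. The part of RNA integrity in the muscle differences was not tested. Summed over the 4 skeletal muscle markers with a probe set (MYOD1, MYH3, TNNC2 and CKM), the signal was 3605 in N2 and 17958 in N3. MYOG, ACTA1 and DES had no matched probe set.

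Heart genes were mixed. Of 16 measured members 5 were higher and 2 lower (median 0.58). Among the higher ones, ACTC1 and TNNC1 are also made by embryonic skeletal muscle, and they gave 8083 in N2 and 20334 in N3 for ACTC1 (2.52-fold higher) and 51 in N2 and 526 in N3 for TNNC1 (at least 5.26-fold higher). TNNT2, the cardiac troponin T, had 138 in ESC, 3926 in EB and 1759 in N1, then 864 in N2 and 2487 in N3 (2.88-fold higher; second probe set 1.95), so N3 remained below EB. CSRP3, a Z disc protein of striated muscle, was 3.96-fold higher. MYL7 and MYH6, the atrial light and heavy myosin chains, had log2 ratios of 0.15 and 0.53 without passing 2-fold. HAND1 and TBX5, transcription factors of heart and other mesoderm, were 4.63-fold and 2.38-fold lower.

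**Figure D4:**
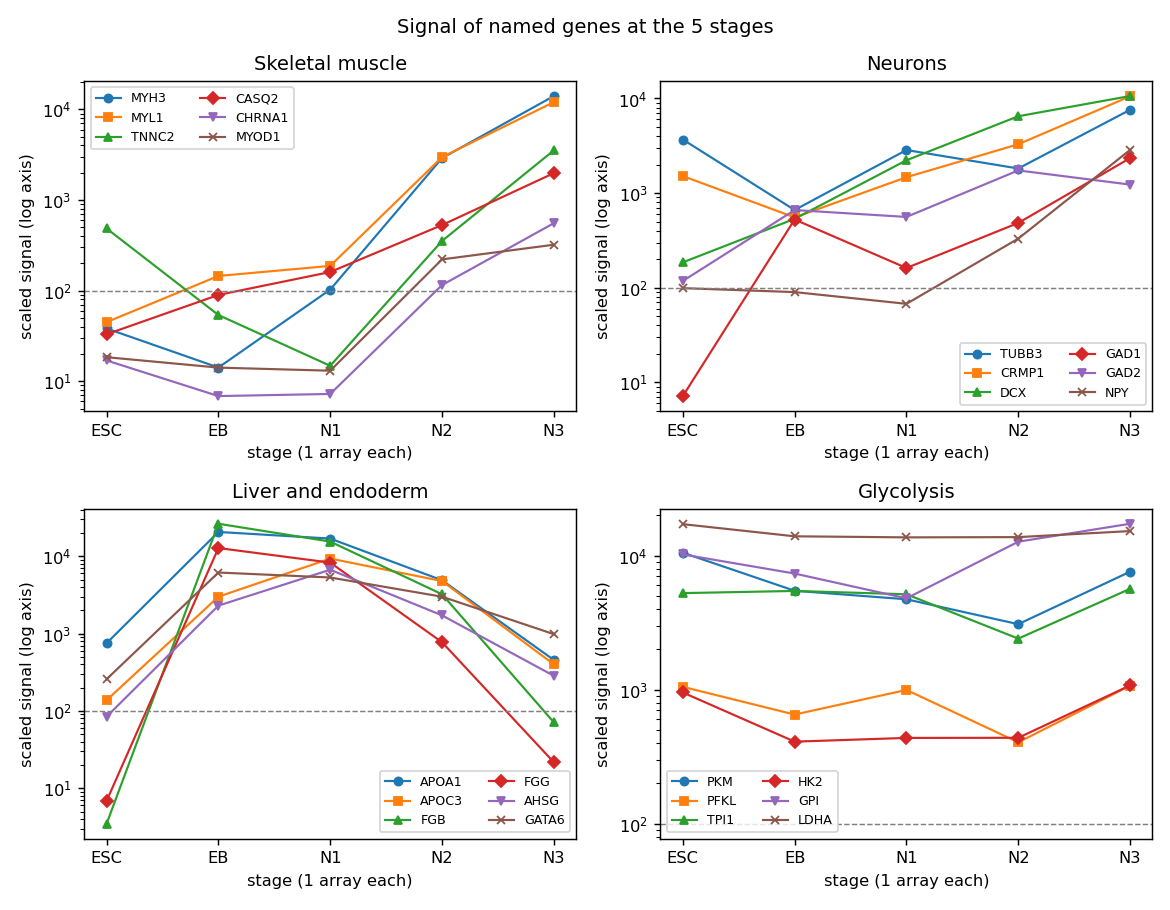
Scaled signal (log axis) of 6 genes each from skeletal muscle, neurons, liver and endoderm, and glycolysis at the 5 stages, 1 array per point, with the floor of 100 dashed. MYH3, MYL1 and TNNC2 are highest in N3, APOA1, FGB and FGG peak in EB and fall through N2 to N3, and the glycolysis genes PKM, PFKL and TPI1 are lowest in N2.

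Many liver and endoderm genes were lower in N3. Of 42 listed genes 35 had a probe set and 32 were measured, 17 of them at least 2-fold lower and 1 higher, with a median log2 ratio of -1.28, against 2.19% lower among all measured genes. APOA1, the main protein of high-density lipoprotein, had 751 in ESC, 20596 in EB and 16909 in N1, then 4889.6 in N2 and 456 in N3 and was 10.7-fold lower in N3 than in N2. APOA2 and APOC3, further apolipoproteins, gave 2825 in N2 and 205 in N3 (13.8-fold lower) and 4774 in N2 and 400.2 in N3 (11.9-fold lower). Other APOC3 probe sets had log2 ratios of -2.87 and -0.05. FGB, a fibrinogen chain, had 3.48 in ESC, 26301 in EB and 15461 in N1, then 3222 in N2 and 71.2 in N3, which made it at least 32.2-fold lower (second probe set -2.72 on the log2 scale). The other fibrinogen chains FGA and FGG were lower by at least 10.1-fold and by at least 7.73-fold, and both lay below the floor in N3. AHSG, a liver plasma protein, had 84.4 in ESC, 2299 in EB and 6691 in N1, then 1721 in N2 and 284 in N3 (6.05-fold lower). PLG, the precursor of plasmin and no member of the list, gave 811 in N2 and 68.1 in N3 (at least 8.11-fold lower; other probe sets -2.59 and -2.41).

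The transcription factors of the group followed the same direction where they passed 2-fold. FOXA1 gave 14.7 in ESC, 4456 in EB and 2709 in N1, then 1341 in N2 and 523 in N3 (2.56-fold lower), GATA6, a factor of early endoderm named after its values were seen, 2996 in N2 and 983 in N3 (3.05-fold lower), and CDX2, of hindgut and trophoblast, 565 in N2 and 191 in N3 (2.96-fold lower). FOXA2, which acts in endoderm and floor plate, had a log2 ratio of -0.54. AFP, the fetal serum protein of yolk sac and liver, differed from this, with 991 in ESC, 601 in EB and 484 in N1, then 410.3 in N2 and 437 in N3 and a log2 ratio of 0.09. VIL1, a brush border protein also named after its values were seen, was 3.54-fold higher on its brightest probe set, while 2 further probe sets measured -1.21 and -0.39 on the log2 scale. SERPINA1, an inhibitor of neutrophil elastase made in liver, gave 6871 in N2 and 2049 in N3 (3.35-fold lower), but its other probe sets had log2 ratios of 0.24, -0.83, 0.01 and 0.01. Several of these probe sets are marked by their names as able to bind related transcripts, and without such probe sets 10 of 26 measured members were lower and 1 higher, with a median of -0.55. With N1 as the reference, which shares the N3 array, 26 of 33 were lower and 0 higher, where 6.67% of all measured genes were lower. Summed over the 5 liver or endoderm markers with a probe set, the signal was 9769 in N2 and 1311 in N3, with FGB and FGG below the floor in N3.

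Some epithelial, vascular and blood genes were lower as well. Of 16 measured epithelial genes 5 were lower and 0 higher (median -0.65). EPCAM, an adhesion molecule of epithelia, had 3036 in ESC, 6065 in EB and 3563 in N1, then 1763 in N2 and 547 in N3 (3.22-fold lower), and DSP, the main plaque protein of desmosomes, 4628 in ESC, 9559 in EB and 7674 in N1, then 4913 in N2 and 1792 in N3 (2.74-fold lower). KRT19, a keratin of simple epithelia, gave 2889 in N2 and 1118 in N3 (2.58-fold lower; other probe sets -1.21 and -0.91), CLDN6 665 in N2 and 205 in N3 (3.24-fold lower) and TP63, a factor of stratified epithelia, 275 in N2 and 112 in N3 (2.46-fold lower). The keratins KRT8 and KRT18 had log2 ratios of 0.70 and -0.33. Of 10 measured endothelial genes 3 were lower and 1 higher (median -0.67). PECAM1 and CDH5, junction proteins of endothelium, gave 300.3 in N2 and 60.9 in N3 for PECAM1 (at least 3.0-fold lower) and 254 in N2 and 12.1 in N3 for CDH5 (at least 2.54-fold lower), and the receptor gene TIE1 was at least 2.12-fold lower. Of 5 endothelial markers 3 reached the floor in N2 (PECAM1, CDH5 and TEK) and 1 in N3 (TEK). Their summed signal was 3300 in N2 and 1635 in N3, most of it from TEK in N3, so endothelial marker signal was not absent there. The second PECAM1 probe set stood at -0.01 on the log2 scale, and with a floor of 200 none of the 7 endothelial genes then measured passed 2-fold (0 lower and 0 higher). ENG, a receptor of TGF-beta family ligands, was 2.25-fold higher, with 163 in ESC, 251 in EB and 254 in N1, then 112 in N2 and 252 in N3, so that N3 did not exceed N1. The fetal globin gene HBG2 was at least 3.08-fold lower at 308 in N2 and 43 in N3, and all 3 red cell markers with a probe set lay below the floor in N3. Of 5 macrophage markers 2 reached the floor in N2 (CD14 and CD68) and 1 in N3 (CD68), with a summed signal of 2017 in N2 and 2605 in N3, most of it from CD68, a lysosomal protein (1734 in N2 and 2364 in N3, log2 ratio 0.45). CSF1R, PTPRC and TYROBP lay below it on both arrays. Of 10 measured trophoblast and amnion genes 4 were lower (2 with a floor of 200) and 0 higher (median -0.81): HAND1, CDX2, TP63 and GABRP, a GABA receptor subunit of epithelia (3.64-fold lower).

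Genes of mesenchyme were measured on both arrays. Of 33 measured genes of mesenchyme and fibrillar matrix 2 were higher and 0 lower (median 0.21), near the 4.78% higher among all measured genes. The 2 were the small proteoglycan genes ASPN (1482 in N2 and 3679.8 in N3, 2.48-fold higher) and FMOD (451 in N2 and 1254 in N3, 2.78-fold higher). In the list 21 genes had a positive log2 ratio and 12 a negative one. COL1A1, a chain of type I collagen, had 4635 in ESC, 3604 in EB and 8634 in N1, then 10541 in N2 and 20539 in N3 (log2 ratio 0.96). The other mesenchyme markers with a probe set were split. COL1A2 and COL3A1 had log2 ratios of 0.38 and 0.15, whereas LUM, DCN and TWIST1 had -0.40, -0.29 and -0.65. The marker sum was 44543 in N2 and 48727 in N3, so fibroblast-type signal was present on both arrays.

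Some glycolysis and hypoxia response genes were higher, and one of them, GAPDH, also has control probe sets along its transcript. Of 27 measured members 8 were higher and 0 lower (median 0.48). PKM, the last enzyme of glycolysis, had 10522 in ESC, 5473 in EB and 4729 in N1, then 3084 in N2 and 7594 in N3 (2.46-fold higher; second probe set 1.59). PFKL, which commits sugar to glycolysis, had 1051 in ESC, 653 in EB and 997 in N1, then 405 in N2 and 1072 in N3 (2.65-fold higher), and TPI1, of the middle of the pathway, 5256 in ESC, 5457 in EB and 5154 in N1, then 2406 in N2 and 5661 in N3 (2.35-fold higher; second probe set 0.04). For these 3 genes N2 was the lowest of the 5 stages, and 3 of the 8 higher genes had the order of ESC above N1 above EB. HK2, the first enzyme, had 954 in ESC, 410.0 in EB and 437 in N1, then 438 in N2 and 1077 in N3 (2.46-fold higher) and PDK1, which diverts pyruvate from mitochondria, was at least 2.49-fold higher. GAPDH, represented by a probe set outside the controls, gave 5135 in N2 and 11485 in N3 (2.24-fold higher), whereas the 3' control probe set of the same transcript had 53036 in N2 and 45961 in N3 and the 5' one 7475 and 21837. ENO1, the enolase of most tissues, had a log2 ratio of 0.01 on its brightest probe set and of 0.62, 1.32 and 2.10 on others. LDHA and GPI had log2 ratios of 0.15 and 0.45. Probe sets of 1 transcript thus disagreed in this list, and where each lies along its transcript was not analysed here. When probe sets with related targets were dropped 5 of 24 were higher, with 0 lower. With N1 as the reference, which shares the N3 array, 10 of 27 were higher and 0 lower (median 0.71), where 8.42% of all measured genes were higher.

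Among all genes above the floor on both arrays, several with large differences lie outside the groups above. KIF5C, a kinesin motor of axons, had 3843 in ESC, 478 in EB and 1108 in N1, then 1222 in N2 and 9047 in N3 (7.4-fold higher), but its second probe set had a log2 ratio of -0.14. LCN2, a secreted iron-carrier protein, was 5.87-fold higher, with 0.08, 0.17 and 0.22 on the log2 scale for its other probe sets, and OPRL1, the nociceptin receptor, 4.99-fold higher, with -0.05. For these 3 genes a single probe set carried the difference. HSPB3, a small heat shock protein of muscle, gave 48.6 in ESC, 5.12 in EB and 138 in N1, then 208 in N2 and 1099 in N3 (5.27-fold higher), and the related CRYAB, the 1 higher gene of 15 measured heat shock genes, 315 in ESC, 177 in EB and 192 in N1, then 118 in N2 and 556 in N3 (4.69-fold higher). ELOF1, a transcription elongation factor, was 5.39-fold higher (2453 in ESC, 553 in EB and 1732 in N1, then 217 in N2 and 1172 in N3), so that N2 was its lowest stage. On the lower side, HPGD, which inactivates prostaglandins, had 11.5 in ESC, 1619.5 in EB and 841 in N1, then 916 in N2 and 112 in N3 (8.19-fold lower; other probe sets -2.39, -1.59 and -0.15). SLC5A12, a lactate transporter of kidney and gut, gave 54.2 in ESC, 7545 in EB and 6595 in N1, then 1339.7 in N2 and 186 in N3 (7.2-fold lower), and MEP1A, a brush border protease, 626 in N2 and 129.6 in N3 (4.83-fold lower). AGTR1, the angiotensin II receptor, had 115 in ESC, 5224 in EB and 6639.5 in N1, then 2032 in N2 and 474 in N3 (4.29-fold lower; second probe set -0.51). KYNU, of tryptophan breakdown, and CYP2C19, a drug-metabolising enzyme of liver, were 4.59-fold and 4.63-fold lower, and SHISA3 5.78-fold lower. HPGD, SLC5A12, MEP1A and AGTR1 all had their highest signal in EB or N1.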

How the data were processed

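Messenger RNA was measured on Affymetrix rhesus arrays, per the labels' protocols from total RNA (Qiagen micro kit) that carried a biotin label. The authors deposited array intensities on a linear scale, 1 value per probe set and array. GCOS 1.0, Affymetrix's array software, is named per the submitters' processing notes. Which algorithm, scaling target or detection calls were used is not given in the sources used here. The deposited intensities had 2% trimmed means of 199.096 to 199.346 over non-control probe sets, so they had been scaled already.

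Every array was multiplied by 2.508 to 2.511 so that its 2% trimmed mean was 500, values below 100 were set to 100 and log2 was taken. Signals in the text are those before this floor. Of 52865 probe sets 158 were controls. The platform annotation, which can be old, listed 25330, of which 24969 had 1 gene symbol and 361 several, and 27535 were not listed and stay unnamed. A gene was represented by its probe set with the highest mean over the 5 arrays among those with 1 symbol. Coordinates are not given, since no genome build is named for the array. Of 59 reporter control probe sets, 0 reached 100 in N2 and 1 in N3.

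The comparison is a ratio of single arrays, so no statistical test was run and the number of arrays limits the precision. A gene was counted past a fold of 2. The ratios were tested on simulated data with known folds. The members and the 54 gene lists were chosen with earlier results of these data known. The lists name 1557 genes, of which 1098 had a probe set, 459 had none matched and 881 were measured. Named genes are the 15 with the largest difference each way where both signals are at least 100 and the brighter at least 200, the 5 with the largest bound each way, up to 6 members of a list past 2-fold and its 3 brightest, and the cell type markers. Other genes are said to be named after their values were seen.

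Alternatives were 4 other scalings (values as deposited, quantile normalisation, equal medians, hybridisation controls), a floor of 50 or 200 or none (log2 of the value plus 1), the median over a gene's probe sets, the removal of those whose names mark them as able to bind related transcripts, and a 4-fold threshold. N1 in place of N2 as the reference was chosen after seeing the data. Python 3.11.15, numpy 2.4.6, pandas 2.3.3 and matplotlib 3.10.9 were used.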

Additional observations from a re-analysis of the deposited data

Results flagged for a closer look

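Probe sets without a gene name enter none of the comparisons above, and they also differed between the arrays. Of 11990 measured unnamed probe sets, 575 were at least 2-fold higher in N3 and 313 at least 2-fold lower. These shares are near the 4.78% higher and 2.19% lower among measured named genes, so the counts say nothing particular about unnamed probe sets. Each of these probe sets had signal over the floor in N2, N3 or both, and this step of the culture has no control array. What they measure was not established.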

How the results depend on the processing

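The 497 higher and 228 lower genes became 828 and 131 with scaling to the hybridisation controls, with the median over all genes moving from -0.02 to 0.17 (log2), and 36 and 22 at 4-fold. Equal medians moved that median to -0.13. The lower genes numbered 396 with a floor of 50, 391 with no floor and 149 with a floor of 200. With N1 as the reference, 897 genes were higher and 710 lower, 261 and 164 of them the same genes as with N2. Under that change ELOF1 (log2 ratio -0.56), ENG (-0.00912), IGF2BP1 (-1.15), IGFBP5 (-0.63), ITGB1 (-0.91), SPP1 (0.0673) and ZNF253 (-0.16) turned direction. SERPINA1 stood at 0.00659 with the median of its probe sets and at 0.24 when probe sets with related targets were dropped. For all of these the cause was not tested. Of 54 list medians, 23 moved by more than the technical spread with N1 as the reference, 3 with no floor, 2 with a floor of 200 and 1 each with a floor of 50 and with those probe sets dropped, and 0 under the 4 other scalings or the median of probe sets. All of these scalings but quantile normalisation multiply an array by 1 factor. They shift ratios nearly alike and by less than that spread of 0.434, so the 0 under them was fixed in advance. No paired analysis was possible because the labels give no replicate numbers and each stage has 1 array, and leaving out a replicate could not be done for the same reason. Signals near the floor of 100 limit what can be said of the serotonin genes.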

Other observations

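Signalling and patterning genes outside the neuronal and muscle groups were split. The counts below stand against 4.78% higher and 2.19% lower among all measured genes. Of 12 measured genes of the retinoic acid pathway 4 were at least 2-fold lower in N3 and 0 higher (median log2 ratio -0.27), but 1 of 11 was lower with a floor of 200 and 2 of 12 with scaling to the hybridisation controls. The 3 second probe sets of this list had a median of 0.62. CYP26A1, which degrades retinoic acid, gave 6571 in ESC, 806 in EB and 191 in N1, then 338 in N2 and 105 in N3 (3.23-fold lower), and the synthesis enzymes ALDH1A2 and ALDH1A3 were 2.11-fold (2812 in N2 and 1335 in N3) and at least 2.59-fold lower. The receptor gene RARG was 2.06-fold lower, so genes for synthesis, breakdown and reception were all among the lower ones. Of 41 measured WNT pathway genes 3 were higher and 4 lower (median 0.00), and with a floor of 200 1 was higher and 2 lower. The ligand genes WNT7A (67.5 in ESC, 6.02 in EB and 18.8 in N1, then 284 in N2 and 676 in N3), WNT7B and WNT4 were 2.38-fold, at least 2.26-fold and 2.2-fold higher, whereas the ligand gene WNT2 (19.1 in ESC, 543 in EB and 696 in N1, then 410.2 in N2 and 127 in N3), the nuclear factor gene TCF7 and the receptor gene FZD5 were 3.22-fold, 2.52-fold and 2.49-fold lower. The 3 higher genes were ligand genes, but so was WNT2, the gene with the lowest ratio of the list. A count of 3 higher in 41 is near the share among all measured genes and says nothing particular about ligands. Of 31 measured genes of the TGF-beta and BMP pathway 1 was higher and 3 lower, and 0 were lower with scaling to the hybridisation controls and 5 with equal medians or quantile normalisation. The inhibitor genes SMAD6 and BAMBI, which BMP signals induce, and the ligand gene GDF6 were 2.26-fold, 2.11-fold and 2.11-fold lower, and the receptor gene ACVR2B was 2.25-fold higher. A second probe set was measured for 1 of these genes and did not share its direction. The 12 second probe sets of the whole list had a median of 0.11.

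Of 19 measured genes of the insulin-like growth factor axis 3 were higher and 0 lower (median 0.18), and 1 was higher with a floor of 200. IGFBP2, a binding protein abundant in the embryonic brain, had 18356 in ESC, 3608 in EB and 6832 in N1, then 7834 in N2 and 21575 in N3 (2.75-fold higher). IGFBP5 was at least 2.93-fold higher and IGF2BP1, an RNA-binding protein, 2.01-fold higher, and these 2 genes had a lower signal in N3 than in N1. HOX genes set position along the body axis. Among groups 1 to 5, 1 of 8 measured genes was higher, HOXB3 (132 in N2 and 288 in N3, 2.18-fold higher), and among groups 6 to 13, 1 of 15, HOXA7 (14.5 in ESC, 748 in EB and 897 in N1, then 854 in N2 and 2339 in N3, 2.74-fold higher), with 0 lower in both, where 4.78% of all measured genes were higher. In groups 6 to 13, 13 of 15 genes had a positive log2 ratio, with a median of 0.33, and against N1, which shares the N3 array, the median was 0.82. Of 17 measured cartilage and bone genes 2 were higher and 3 lower, and with scaling to the hybridisation controls 1 was lower. A second probe set was measured for 2 of the genes past 2-fold and had the same direction for 1 of them. HAPLN1, which links proteoglycans to hyaluronan, had 4.0 in ESC, 12494 in EB and 3596 in N1, then 1237 in N2 and 518 in N3 (2.39-fold lower; other probe sets -1.69 and -1.68), and COL11A2 and SPP1 were 2.28-fold and 2.16-fold lower, while the transcription factor genes SOX5 and SOX9 were 2.56-fold and 2.27-fold higher. None of 32 measured oxidative phosphorylation genes and none of 23 genes of cholesterol and fatty acid synthesis passed 2-fold (0 higher and 0 lower in each, medians 0.09 and 0.00), and of 31 ribosomal protein genes 1 was higher, RPL4 (2.31-fold higher), and 0 lower.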
